A study of Mus musculus with 4 samples.

Results

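A list of 10 genes that mark reactive astrocytes or belong to the acute-phase response was given by name: Gfap, Vim, Serpina3n, Lcn2, Lrg1, Osmr, Cd44, Steap4, S1pr3 and Timp1. They were matched by Entrez identifier to a table of reads per gene, and 7 of the 10 had a row among its 12700 genes. Cd44, Steap4 and Timp1 had none, and their expression was not analysed here. The table came from the brain of Ids-ko mice, a model of mucopolysaccharidosis type II (Hunter syndrome), in which the lysosomal enzyme iduronate 2-sulfatase, encoded by Ids, is missing and heparan and dermatan sulfate accumulate. All animals were C57BL/6 mice aged 9 months, either Ids-/- or wild-type (wt) littermates, and no treatment was named. The areas were the cerebral cortex (Cx) and a block labelled as midbrain, diencephalon and hippocampus (M), and the 4 libraries were CxH and MH (labelled Ids-ko) and CxWT and MWT (labelled wt). Each library was 1 pool of RNA from 7 mice, with both areas taken from the brains of the same 7 Ids-ko and 7 wt mice as the study describes it, so that CxH and MH, and CxWT and MWT, share animals by label. The spread between mice could not be measured, errors below cover the counting of reads only, and no p-value is given. Libraries were compared in pairs by a Poisson likelihood ratio test, and a gene was called where p fell under 0.05 and the log2 ratio reached 0.7 in either direction. Such a call compares these libraries and not the genotypes or areas.

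The labels were checked first, because directions are drawn from them. Ids had 135 reads per 1000000 aligned reads (RPM) in CxH, 155 in MWT, 368 in MH and 354 in CxWT. The knocked-out gene was therefore low in the library labelled Ids-ko Cx and in the library labelled wt M, and 2.37-fold higher in MH than in MWT. Reads remained on Ids in every library, and whether they lie inside the disrupted part of the gene cannot be told from counts per gene. The 13 markers of cortical excitatory neurons summed to 2385 RPM in CxH, 267 in MWT, 2085 in MH and 356 in CxWT, and 14 of 16 listed markers of midbrain and diencephalon, those with a row, summed to 39.5, 511, 51.8 and 605 RPM in the same order. The area markers thus paired CxH with MH and CxWT with MWT, against the area labels of CxWT and MH, and Ids paired CxH with MWT. All 6 pairs of libraries are given for this reason, and names such as CxWT below mean the library that carries this label.

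Astrocytes are the glial cells that supply neurons, take up glutamate and contact blood vessels. After injury, infection or neurodegeneration they become reactive: they enlarge, build more intermediate filaments from proteins such as GFAP and vimentin, and secrete proteins that in the liver belong to the acute-phase response to inflammation. Cytokines of the interleukin-6 family, which act through receptors such as OSMR and the transcription factor STAT3, are among the known inducers of this state, and lysosomal storage diseases of the brain are known for it.

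Lcn2, Gfap, Lrg1 and Osmr were the members that stood higher in both CxH and MWT than in both CxWT and MH, and the 250 bases before their transcription start are printed to show what sequence these members have in front of them. The sequences are from RefSeq on GRCm38.p6, given 5′ to 3′ on the strand of the gene, and capitals mark matches to the motifs searched. They lie at chr2:32387740-32387989, chr11:102897201-102897450, chr17:56121947-56122196 and chr15:6874314-6874563, in the order printed, all on the minus strand.
Lcn2: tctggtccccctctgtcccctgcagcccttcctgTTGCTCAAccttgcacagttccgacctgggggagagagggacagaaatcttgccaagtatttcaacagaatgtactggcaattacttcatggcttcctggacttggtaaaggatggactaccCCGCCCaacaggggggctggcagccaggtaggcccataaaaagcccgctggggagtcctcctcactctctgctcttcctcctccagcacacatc
Gfap: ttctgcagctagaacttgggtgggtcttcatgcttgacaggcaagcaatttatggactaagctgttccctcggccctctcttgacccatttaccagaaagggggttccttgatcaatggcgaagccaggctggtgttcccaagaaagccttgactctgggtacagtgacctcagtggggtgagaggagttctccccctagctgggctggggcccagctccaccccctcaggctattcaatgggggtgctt
Lrg1: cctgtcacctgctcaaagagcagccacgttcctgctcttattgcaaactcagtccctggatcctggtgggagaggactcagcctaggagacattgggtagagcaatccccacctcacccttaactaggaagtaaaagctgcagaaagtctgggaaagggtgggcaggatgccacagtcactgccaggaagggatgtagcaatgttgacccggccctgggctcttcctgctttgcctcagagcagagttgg
Osmr: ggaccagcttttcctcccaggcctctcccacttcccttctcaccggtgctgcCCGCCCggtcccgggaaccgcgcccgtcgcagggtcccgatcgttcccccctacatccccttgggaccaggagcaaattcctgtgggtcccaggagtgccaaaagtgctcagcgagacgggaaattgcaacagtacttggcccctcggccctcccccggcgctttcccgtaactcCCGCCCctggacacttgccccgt
In all, 6 motifs were searched on both strands: the STAT palindrome TTCNNNGAA, held by 7.02% of 32851 promoter windows of the same length, the C/EBP motif TTGCNNAA (9.56%), the AP-1 motif TGANTCA (6.75%), the kappa B motif (7.25%), the TATA box TATAAA (12.4%) and the GC box GGGCGG (32.7%). The Lcn2 window held a C/EBP match, TTGCTCAA, from 216 to 209 bases before the start, and a GC box at 94 to 89. The Osmr window held a GC box at 198 to 193 and another at 23 to 18, each read on the opposite strand. In the Gfap and Lrg1 windows none of the 6 motifs was found. Of the other members with a row, Vim held a TATA box at 32 to 27 bases and 3 kappa B matches, of which 2 overlap at 142 to 132 bases, S1pr3 a GC box at 20 to 15, and Serpina3n no match. A match is a string of letters, and binding was not measured.

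Gfap, the intermediate filament protein that defines reactive astrocytes in histology, was the most abundant member in all 4 libraries (NCBIM37/mm9 chromosome 11, 102748650 to 102762226, minus strand, Entrez 14580). It had 23235 reads in CxH, 16062 in MWT, 9468 in MH and 9417 in CxWT. Scaled by aligned reads these were 603 RPM (95% exact Poisson interval 596 to 611), 555 (546 to 564), 253 (248 to 259) and 280.1 (274 to 286) in the same order. The levels fell into a high pair, CxH and MWT, and a low pair, CxWT and MH, and the intervals of the 4 libraries did not touch. By label, Gfap was 2.15-fold higher in Ids-ko Cx than in wt Cx (log2 ratio 1.11 ± 0.018, counting SE) and 2.19-fold lower in Ids-ko M than in wt M (-1.13 ± 0.019), where the area markers contradict the labels of CxWT and MH, and Ids those of MH and MWT. Between libraries alike in area markers it was 2.38-fold higher in CxH than in MH and 1.98-fold higher in MWT than in CxWT, whereas CxH and MWT differed by a log2 ratio of only 0.12 and MH and CxWT by -0.14.

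Vim encodes vimentin, a filament protein of astrocytes that is also made by endothelial, mural and meningeal cells (chromosome 2, 13495554 to 13504453, plus strand, Entrez 22352). Its level was 38.9 RPM in CxH, 26.2 in MWT, 29.3 in MH and 25.3 in CxWT, from 758 to 1499 reads. It was highest in CxH, and the other 3 libraries lay close together, the interval of MWT overlapping those of both CxWT and MH. The largest log2 ratio was 0.62 for CxH over CxWT, and Vim was called in none of the 6 pairs, although this ratio passed the threshold with TMM or DESeq2 scaling (0.72 and 0.71). As RPKM, which divides RPM by the transcript length in kilobases, the scale on which genes can be compared, Gfap was at 95.7 to 228 and Vim at 11.5 to 17.8. Of the 6 listed filament partners 4 had a row, and 0 were called between CxH and MH (2.43% of all genes higher in CxH and 1.06% in MH). Between CxWT and MWT 2 were called higher in CxWT (5.43% of all genes), opposite to Gfap, and 0 in MWT (2.11%). They were Plec, a linker between filaments and membranes, and Lmna, a nuclear lamin (log2 ratios 0.95 and 0.74). Lmna was chosen for mention after its values were seen. Synm, a filament protein that assembles with vimentin, had log2 ratios between -0.11 and 0.01 in all 6 pairs.

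**Figure D1:**
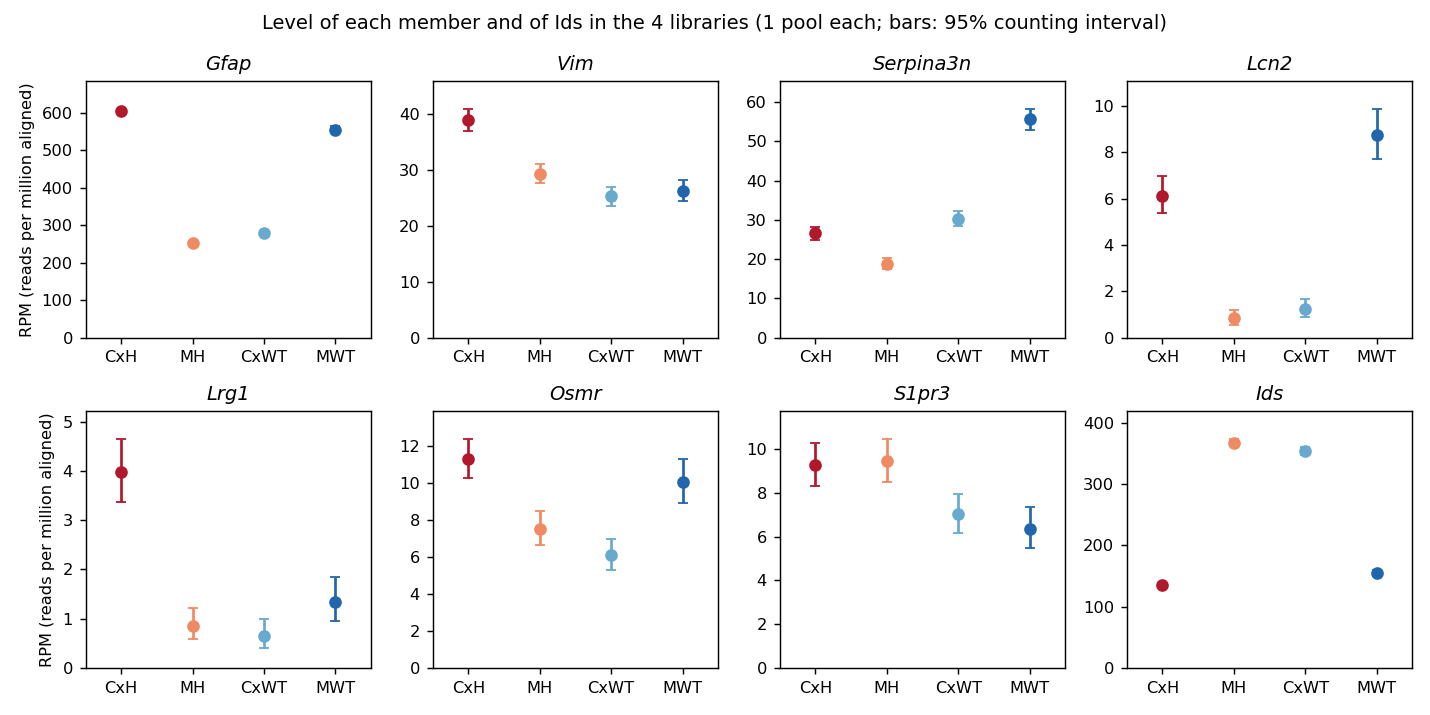
Level of each member and of Ids in each library, in RPM on a linear axis from 0, with 95% exact Poisson intervals as bars and 1 pooled library per point. Gfap, Lcn2, Lrg1 and Osmr are higher in CxH and MWT than in MH and CxWT, and Ids, at 135 and 155 RPM against 368 and 354, is lower there.

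The 3 secreted members differed most between libraries and also differed from each other. Lcn2 encodes lipocalin 2, an iron-siderophore carrier that is secreted by reactive astrocytes and is also a granule protein of neutrophils (chromosome 2, 32240153 to 32243317, minus strand, Entrez 16819). It had 236 reads in CxH, 253 in MWT, 31 in MH and 41 in CxWT, which are 6.13 RPM (5.37 to 6.96), 8.74 (7.70 to 9.89), 0.830 (0.564 to 1.18) and 1.22 (0.875 to 1.65) in the same order. CxH and MWT were far above the other pair, and only the intervals of CxWT and MH overlapped. The log2 ratio was 2.33 ± 0.24 for CxH over CxWT, a 5.03-fold difference, and -3.40 ± 0.27 for MH over MWT, a level 10.5-fold higher in the library labelled wt M. In the pairs alike in area markers Lcn2 was 7.39-fold higher in CxH than in MH and 7.17-fold higher in MWT than in CxWT. The ratio of its highest to its lowest library, 10.5, was the largest among the 7 members.

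Lrg1 encodes leucine-rich alpha-2-glycoprotein, a secreted acute-phase protein that acts on endothelial cells through the TGF-beta co-receptor endoglin (chromosome 17, 56259103 to 56261369, minus strand, Entrez 76905). Its 153 reads in CxH, 39 in MWT, 32 in MH and 22 in CxWT gave 3.97 RPM (3.37 to 4.66), 1.35 (0.958 to 1.84), 0.856 (0.586 to 1.21) and 0.654 (0.410 to 0.991) in the same order. Only CxH stood clear of the rest. MWT was highest of the other 3, but its interval overlapped those of MH and CxWT. Lrg1 was 6.07-fold higher in CxH than in CxWT (log2 ratio 2.60 ± 0.33) and 4.64-fold higher than in MH, and it was called higher in MWT than in CxWT, with a log2 ratio of -1.04 ± 0.38 for CxWT over MWT, a call that ended when a coefficient of variation of 0.2 between pools was assumed. It was not called between MH and MWT (-0.65 ± 0.34, or -0.71 and called with column totals as depth, and -1.22 and not called with the correction for GC content and length, which left the p of the counts unchanged), and unlike Gfap and Lcn2 it was called between CxH and MWT (1.56 ± 0.26), a call that ended with a correction for GC content and length (0.68). Both receptors it is known with, Eng and Acvrl1, were called higher in the library labelled Ids-ko in both areas (Eng 0.79 and 1.13, Acvrl1 0.97 and 0.72), so their order over the libraries was not that of Lrg1. For CxH over MH and CxWT over MWT, Eng had 0.42 and 0.76 and Acvrl1 0.35 and 0.10.

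Serpina3n, a secreted serine protease inhibitor that is a common marker of reactive astrocytes, followed another order (chromosome 12, 105644939 to 105652539, plus strand, Entrez 20716). Its level was 26.5 RPM in CxH (24.9 to 28.2), 55.6 in MWT (52.9 to 58.4), 18.8 in MH (17.4 to 20.2) and 30.3 in CxWT (28.5 to 32.3). MWT was highest, and CxH lay below CxWT, where Gfap, Lcn2 and Lrg1 were higher in CxH. Within the area-matched pairs it was 1.41-fold higher in CxH than in MH (log2 ratio 0.50 ± 0.071), below the threshold, and 1.83-fold higher in MWT than in CxWT, which was called. It was also called lower in MH than in MWT, by 2.96-fold, and lower in CxH than in MWT (-1.07). The gene belongs to a cluster of near-identical Serpina3 genes, and only reads on a single gene were counted. None of the 7 listed relatives had a row, so its counts are uncertain to the extent that reads are shared with them.

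Osmr encodes the receptor chain for oncostatin M, a cytokine of the interleukin-6 family (chromosome 15, 6763577 to 6824313, minus strand, Entrez 18414). It was at 11.3 RPM in CxH (10.2 to 12.4), 10.1 in MWT (8.93 to 11.3), 7.52 in MH (6.67 to 8.45) and 6.10 in CxWT (5.29 to 6.99). CxH and MWT overlapped in their intervals and stood above MH and CxWT, which also overlapped. Osmr was called in 2 of the 6 pairs, 1.85-fold higher in CxH than in CxWT and 1.65-fold higher in MWT than in CxWT, neither of which passed at a log2 threshold of 1. S1pr3, a receptor for sphingosine 1-phosphate, did not follow it (chromosome 13, 51503987 to 51518166, plus strand, Entrez 13610). Its level was 9.27 RPM in CxH (8.34 to 10.3), 6.36 in MWT (5.47 to 7.34), 9.45 in MH (8.49 to 10.5) and 7.02 in CxWT (6.15 to 7.98), higher in the pair CxH and MH, the libraries with the cortical markers. S1pr3 was called in none of the pairs, the largest log2 ratio being 0.57 for MH over MWT. In RPKM the order of the members in CxH was Gfap (228), Vim (17.8), Serpina3n (12.9), Lcn2 (6.70), Lrg1 (2.94), Osmr (2.33) and S1pr3 (2.07). In MWT it was Gfap (210), Serpina3n (26.9), Vim (11.9), Lcn2 (9.55), Osmr (2.08), S1pr3 (1.42) and Lrg1 (0.997).

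Pair by pair, the members were counted beside the share of all 12700 genes called the same way. By label, 4 of 7 were called higher in Ids-ko Cx than in wt Cx (Gfap, Lcn2, Lrg1 and Osmr), against 9.46% of all genes, and 0 lower, against 11.5%. The median log2 ratio of the 7 was 0.89 beside -0.09 over all genes. By the labels of the M libraries, which Ids contradicts, 0 of 7 were called higher in Ids-ko M than in wt M (12.3% of all genes) and 3 lower (Gfap, Serpina3n and Lcn2, against 12.7%), with a median of -0.65 beside -0.07. By label, Gfap and Lcn2 were called in opposite directions in the 2 comparisons, while Vim (0.62 and 0.16) and S1pr3 (0.40 and 0.57) had ratios above 0 in both and Serpina3n (-0.19 and -1.56) below 0 in both.

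In the pairs with like area markers, which share no library with each other but by label each hold 1 set of animals, the called members were in both cases higher in the library with less Ids. Between CxH and MH, 3 of 7 were called higher in CxH (Gfap, Lcn2 and Lrg1), where 2.43% of all genes were, and 0 higher in MH, where 1.06% were, with a median of 0.58 beside 0.01. Between CxWT and MWT, 5 of 7 were called higher in MWT (Gfap, Serpina3n, Lcn2, Lrg1 and Osmr), where 2.11% of all genes were, and 0 higher in CxWT, where 5.43% were, with a median of -0.87 beside 0.04. The count of 5 fell to 2 at a log2 threshold of 1 and to 3 when a coefficient of variation of 0.2 between pools was assumed. Gfap, Lcn2 and Lrg1 were called in both, as were 0.638% of all genes (81 genes), but between CxWT and MWT the call of Gfap ended at a log2 threshold of 1 and that of Lrg1 with the assumed variation between pools, so that only Lcn2 passed under both. In RPM alone, with no test, 4 of 7 members lay higher in both CxH and MWT than in both MH and CxWT, an order that 9.02% of all genes showed.

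The remaining pairs are those alike in Ids. Between CxH and MWT, the libraries low in Ids, 1 was called higher in CxH (Lrg1; 15.6% of all genes) and 1 higher in MWT (Serpina3n; 15.1%). Between MH and CxWT, the libraries high in Ids, 0 were called in either direction, where 6.41% of all genes were called higher in MH and 8.89% higher in CxWT. The medians were 0.17 and 0.22, beside -0.04 and -0.11 over all genes. The pairs overlap in libraries and are not independent of each other.

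**Figure D2:**
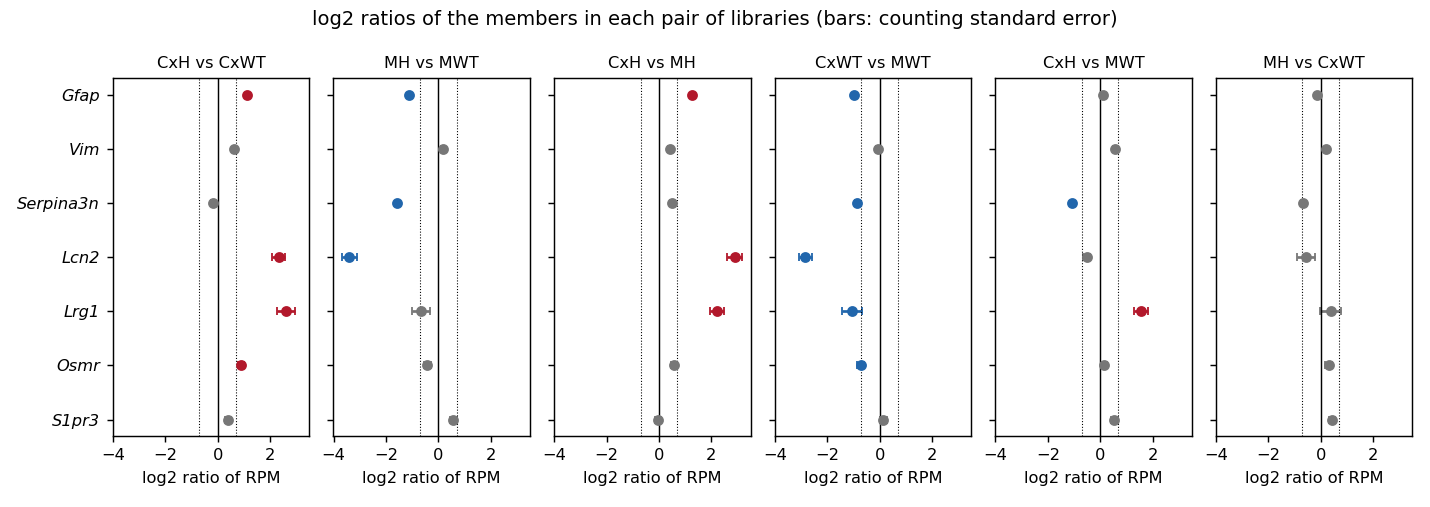
The log2 ratio of RPM of each member in each of the 6 pairs, first library over second, with the counting standard error as bars and dotted lines at 0.7 on either side of 0. Red and blue points are called higher in the first and in the second library, grey points are not called. Gfap and Lcn2 are called in the first 4 pairs and in neither of the last 2.

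**Figure D3:**
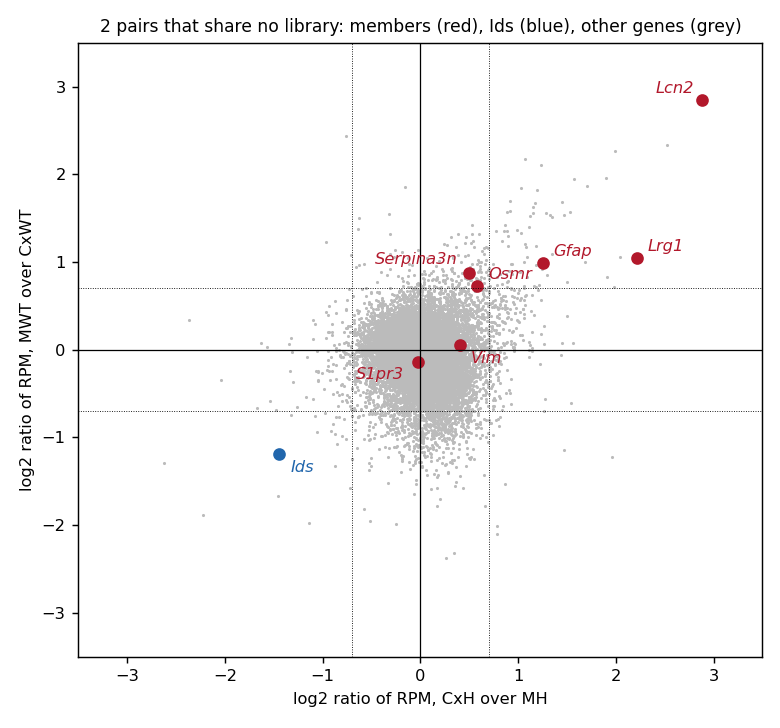
Each point is a gene, with the log2 ratio of RPM of CxH over MH on the x axis and of MWT over CxWT on the y axis, and dotted lines at 0.7. Lcn2 lies at 2.89 and 2.84, Gfap at 1.25 and 0.99 and Lrg1 at 2.21 and 1.04, while Vim and S1pr3 lie among the bulk of genes and Ids lies on the opposite side.

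The base composition of transcripts moved with these pairs. Across 10707 genes the log2 ratio of CxH over MH rose with GC content (Spearman rho 0.582), and so did that of CxWT over MWT (0.629), so that the ratio of MWT over CxWT fell with it. Transcripts of the 7 members held 44.6% (Osmr) to 63.3% GC (Lrg1). With a correction for GC content and length, the log2 ratios in the 2 area-matched pairs, CxH over MH and CxWT over MWT, were 1.11 and -1.15 for Gfap, 2.65 and -2.71 for Lcn2, and 1.90 and -1.51 for Lrg1, so these 3 remained called in both. Osmr changed: it was called between CxH and MH (0.77) and no longer between CxWT and MWT (-0.55).

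In a piece of tissue, more astrocytes and more RNA per astrocyte cannot be told apart, and cells of other types also make some members. The 16 homeostatic astrocyte markers, which label resting as well as reactive astrocytes, summed to 6558 RPM in CxH, 6471 in MWT, 5582 in MH and 6115 in CxWT, a narrow range beside that of Gfap, though also higher in CxH and MWT than in CxWT and MH. In the 2 area-matched pairs 0 of 16 were called in either direction, a count near the shares of all genes (2.43% higher in CxH and 1.06% in MH, 5.43% higher in CxWT and 2.11% in MWT), with medians of 0.21 for CxH over MH and -0.09 for CxWT over MWT. Per read of Aldh1l1, a folate enzyme common to all astrocytes, there were 9.19 reads of Gfap in CxH, 11.6 in MWT, 4.53 in MH and 5.12 in CxWT. Per read of Slc1a3, a glutamate transporter of astrocytes, there were 1.35, 1.49, 0.531 and 0.843 in the same order. Both ratios were again higher in CxH and MWT than in CxWT and MH, whereas Vim per Aldh1l1 read ranged from 0.462 to 0.593 only. Serpina3n per Aldh1l1 read was 0.404 in CxH, 1.16 in MWT, 0.336 in MH and 0.555 in CxWT, with CxH below CxWT as in RPM. By label, of the 16 markers 1 was called higher and 2 lower in Ids-ko Cx (9.46% and 11.5% of all genes), and 0 higher and 3 lower in Ids-ko M (12.3% and 12.7%), counts near those of all genes. Slc1a2, the main glutamate transporter and the most read of them over the 4 libraries together, was the one called higher in Cx (0.84, and 0.43 in M). Aqp4, the water channel of astrocyte endfeet, and Slc4a4, a bicarbonate transporter, were called lower in the Ids-ko library in both areas (Aqp4 -0.80 and -1.30, Slc4a4 -0.86 and -1.14), while each stayed below the threshold in both area-matched pairs.

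The summed markers of microglia, neutrophils and endothelial cells were, like the summed members, higher in CxH and MWT than in MH and CxWT. The 12 microglia markers summed to 756 RPM in CxH, 631 in MWT, 478 in MH and 410.2 in CxWT. Of them, 6 were called higher in CxH than in MH (2.43% of all genes) and 0 lower (1.06%), and 6 higher in MWT than in CxWT (2.11%) and 0 lower (5.43%), among them C1qa, a complement subunit (log2 ratio 1.35 for CxH over MH and -1.09 for CxWT over MWT), and Tyrobp, a signalling adaptor (1.35 and -1.51). The ratio was above 0 in 11 of 12 for CxH over MH, the exception being P2ry12 (35.0 RPM in CxH, 37.5 in MH). It was below 0 in 11 of 12 for CxWT over MWT, the exception being Tmem119 (20.6 RPM in CxWT, 17.9 in MWT). P2ry12 and Tmem119 were chosen for mention after their values were seen. Of 10 listed neutrophil markers 3 had a row, S100a8, S100a9 and Ngp. They summed to 5.90 RPM in CxH, 5.35 in MWT, 1.87 in MH and 3.12 in CxWT, the order also used below. Each of these was called higher in CxH than in MH, and S100a8 and S100a9 also higher in MWT than in CxWT. Reads of S100a8 numbered 85, 69, 22 and 45. Per read of S100a8, Lcn2 had 2.78, 3.67, 1.41 and 0.911 reads, and per read of Ngp 2.43, 6.49, 0.969 and 0.953. These ratios rest on 22 to 85 reads of S100a8 and 32 to 97 of Ngp. Lrg1 had 1.80, 0.565, 1.45 and 0.489 reads per S100a8 read, and 1.58, 1, 1 and 0.512 reads per read of Ngp, on 22 to 39 reads of Lrg1 outside CxH. Endothelial markers (10 genes) summed to 261, 214, 193 and 177 RPM, again higher in CxH and MWT, with 2 of 10 called higher in CxH than in MH (2.43% of all genes) and 0 called between CxWT and MWT (5.43% higher in CxWT and 2.11% in MWT over all genes). Meningeal fibroblast and mural markers (10 of 12 listed) ranged from 215 to 258 RPM. Ependymal and choroid plexus markers (10 genes) summed to 588, 285, 636 and 164 RPM, of which Ttr alone gave 537, 221, 583 and 113. Not all shared this order: Foxj1 had 8.03, 11.7, 6.91 and 13.2 RPM, and for CxH over CxWT 5 of the 10 were above 0 and 5 below. The 2 red cell markers with a row, of 5 listed, summed to 125, 77.1, 186 and 254 RPM, lower in CxH and MWT than in MH and CxWT. The part of these cells in the levels of the members was not tested.

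**Figure D4:**
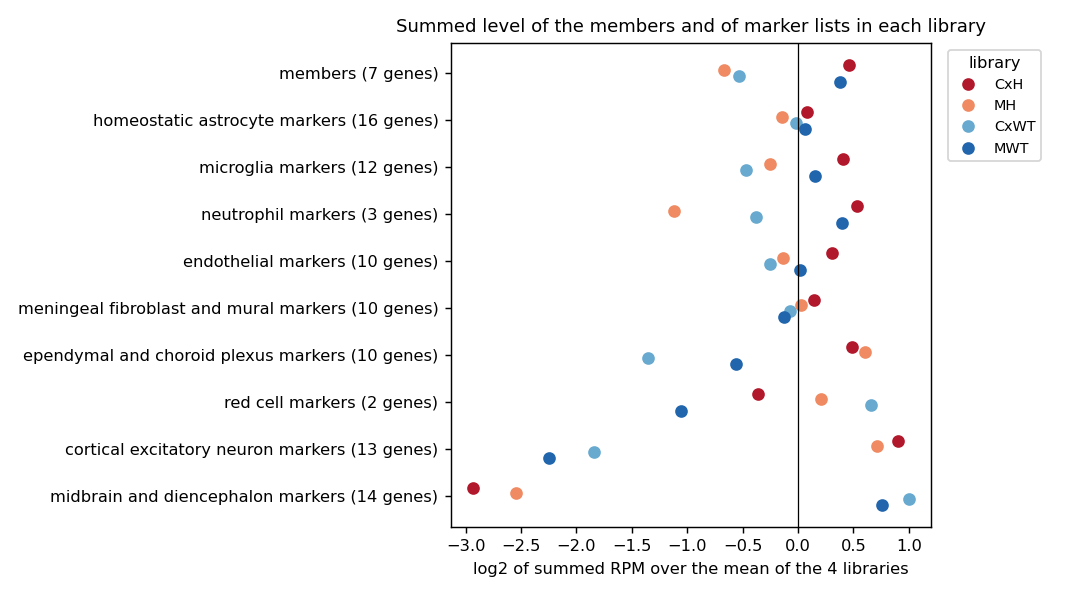
Summed RPM of the members and of each marker list in each library, with 1 point per library. Values are the log2 of the sum over the mean of the 4 libraries. The ependymal and choroid plexus sum is mostly Ttr. The members and the homeostatic astrocyte, microglia, neutrophil and endothelial markers are higher in CxH and MWT than in MH and CxWT, the homeostatic astrocyte markers over a range of 5582 to 6558 RPM only, and the area markers pair CxH with MH and CxWT with MWT.

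Around OSMR, of 5 interleukin-6 family receptor genes with a row, Osmr included, only Osmr was called in any of the 6 pairs. It was called higher in CxH than in CxWT and in MWT than in CxWT, as were 9.46% and 2.11% of all genes. Il6st, the shared signal-transducing chain, had log2 ratios from -0.57 to 0.09. Cntfr, the receptor for ciliary neurotrophic factor, ranged from -0.32 to 0.69. Of 7 ligands 3 had a row, summing to between 1.24 and 1.99 RPM, and 1 was called in each of 4 pairs. Ctf1 (27 to 52 reads) was higher in CxWT than in CxH and MWT, as were 11.5% and 5.43% of all genes. Its log2 ratios were -0.81 for CxH over CxWT and 0.73 for CxWT over MWT. Clcf1 (8 to 25 reads) was higher in MH than in MWT and CxWT (1.28 and 1.03), as were 12.3% and 6.41%. Of 16 genes of the JAK-STAT3 pathway with a row (18 listed), by label 4 were called higher in Ids-ko Cx than in wt Cx (9.46% of all genes) and 5 higher in Ids-ko M than in wt M (12.3%), with 0 lower in either, and 5 were called higher in CxH than in MWT (15.6%). In the area-matched pairs 2 were called higher in CxH than in MH (2.43% of all genes), the adhesion molecule Icam1 (1.09) and the NF-kappa B co-factor Bcl3 (1.14). Between CxWT and MWT 1 was called higher on each side, Icam1 in MWT (-0.83, 2.11% of all genes) and the C/EBP factor Cebpb in CxWT (0.98, 5.43%). The most read genes of the list, the phosphatase Ptpn11 and the kinase Jak1, were called in no pair (0.06 and 0.06 for Ptpn11 and -0.25 and -0.16 for Jak1 in the area-matched pairs). Stat3 itself, the transcription factor, was at 69.4 RPM in CxH, 66.3 in MWT, 50.9 in MH and 56.6 in CxWT, and its log2 ratios of 0.45 and -0.23 in the 2 area-matched pairs were below the threshold. Junb, an immediate early transcription factor, was called higher in Ids-ko than in wt by both labels (2.27 and 2.31) and in neither area-matched pair (0.58 and 0.61). Icam1, Bcl3, Cebpb and Stat3 were chosen for mention after their values were seen.

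Of 22 other acute-phase genes listed, 7 had a row, with ratios above 0 in 7 of 7 for CxH over MH and below 0 in 6 of 7 for CxWT over MWT. They had a median log2 ratio of 0.67 for CxH over MH and -0.48 for CxWT over MWT, beside 0.01 and 0.04 over all genes. Called higher in CxH than in MH (2.43% of all genes) were Mt1, a metal-binding metallothionein (0.85), A2m, a protease inhibitor (0.78), and C4b, a complement component (0.89). A2m was also called higher in MWT than in CxWT (-0.83, 2.11% of all genes), where C4b had -0.48 and Mt1 -0.05. Fth1, the ferritin heavy chain, had 0.67 and -0.68, on both sides just under the threshold. By label, 1 of the 7 was called higher and 2 lower in Ids-ko Cx (9.46% and 11.5% of all genes), and 0 higher and 4 lower in Ids-ko M (12.3% and 12.7%). C4b was the one higher in Cx (0.79). A2m and Itih3, a hyaluronan-binding plasma protein, were called lower in both areas (A2m -1.11 and -2.72, Itih3 -1.95 and -2.54). Itih3 was called in neither area-matched pair (0.36 and -0.23). C4b was chosen for mention after its values were seen.

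The 2 other pan-reactive genes with a row, Cp (the copper enzyme ceruloplasmin) and Aspg (an asparaginase), were called in neither area-matched pair, with log2 ratios of 0.05 and -0.70 for Cp and 0.46 and -0.30 for Aspg. Of the astrocyte genes known to be induced by lipopolysaccharide, 9 of 12 had a row. Psmb8, an immunoproteasome subunit, was called higher in CxH than in MH (134 against 65 reads), where 2.43% of all genes were. H2-T23, a non-classical MHC gene, and Srgn, a granule proteoglycan, were called higher in MWT than in CxWT (-0.80 and -0.88), where 2.11% were. H2-D1, a classical MHC class I gene and the most read of this list over the 4 libraries together, had 0.51 and -0.47. Fkbp5, a glucocorticoid-induced chaperone, had -0.26 and 0.35. Amigo2, an adhesion protein, was lower in Ids-ko by both labels (-2.06 and -1.93) and near 0 in both area-matched pairs (-0.20 and -0.08). Of the genes induced by ischaemia, 7 of 12 had a row. S100a10, an annexin partner and the most read of them, had -0.25 and 0.02 in the area-matched pairs. The lipopolysaccharide co-receptor Cd14 was called in both (0.91 and -0.89), where 2.43% of all genes were called higher in CxH and 2.11% higher in MWT. Ptgs2, an inducible prostaglandin synthase that neurons also make, was higher in MWT than in CxWT (-1.55) but not called between CxH and MH (-0.32). Psmb8, H2-T23, Srgn and Cd14 were chosen for mention after their values were seen.

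Of 27 listed partners of the secreted and surface members 21 had a row, with 1 called higher in CxH than in MH (Cd63, a tetraspanin that binds TIMP1, at 0.93, where 2.43% of all genes were) and 1 called between CxWT and MWT (Eng, higher in CxWT, 0.76, where 5.43% were). Such counts lie near the shares of all genes and are no result about the partners. Slc22a17, a reported lipocalin 2 receptor, had log2 ratios of 0.06 and 0.64, and Spns2, a sphingosine 1-phosphate exporter, -0.10 and 0.42. By label, Spp1, the CD44 ligand osteopontin, was lower in Ids-ko in both areas (-0.96 and -1.86). Ezr, a linker from membrane proteins to actin, was higher in both (1.32 and 1.38). In the area-matched pairs neither was called (Spp1 0.38 and -0.53, Ezr 0.02 and 0.07). Of 17 listed relatives 7 had a row. Of these, 1 was called higher in CxH than in MH (Steap3, 0.88, and 0.49 for CxWT over MWT), where 2.43% of all genes were. Another 1 was called higher in MWT than in CxWT (Steap1, 34 against 14 reads), where 2.11% were, with a log2 ratio of -0.63 for CxH over MH. Both are relatives of Steap4. Timp2 and Steap2, relatives of members without a row, were called lower in Ids-ko by both labels (Timp2 -0.83 and -1.06, Steap2 -1.81 and -1.27). In the area-matched pairs neither was called (Timp2 0.21 and -0.03, Steap2 -0.59 and -0.05). S1pr1, the relative of S1pr3 that astrocytes and endothelial cells share, was called in none of the 6 pairs. Cd63, Steap1 and Steap3 were chosen for mention after their values were seen.

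The genes whose profile over the 4 libraries lay nearest to that of 3 members were found among 12521 genes with at least 100 reads in all, by the root mean square distance of mean-centred log2 RPM. Nearest to Gfap were Hpse, the heparan sulfate-cleaving heparanase (distance 0.0739), Ctsd, the lysosomal protease cathepsin D (0.115), and C1qa (0.117). Hpse had 166 reads in CxH, 127 in MWT, 71 in MH and 65 in CxWT. Nearest to Serpina3n were Dbi, an acyl-CoA-binding protein (0.0381), Cd180, a Toll-like receptor homologue (0.0539), and Cd274, the checkpoint ligand PD-L1 (0.0846). Lcn2 had no close neighbour: the nearest, Wfdc17, a secreted protein of activated macrophages, stood at 0.228 with 65, 61, 11 and 14 reads in that order, followed by the lysozyme gene Lyz2 (0.539) and the Fc receptor gene Fcgr4 (0.541). Such likeness rests on 4 values per gene.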

How the data were processed

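Polyadenylated RNA from 4 pools was sequenced on a SOLiD 3 Plus instrument in a single run. The authors aligned reads that passed quality control to NCBI37/mm9 with PASS (best hit, few mismatches, no gap), and the deposited counts are raw reads per gene, from reads on a single gene and from genes covered over more than a set part of their length. The gene annotation is not given in the sources used here. Requiring a single gene lowers counts of multigene families, and single pools leave counting error as the only measurable error. Reads on genes numbered 23475080 in CxH, 16380080 in MWT, 22057807 in MH and 20266394 in CxWT, or 56.6% to 61.0% of aligned reads. The table has 4 columns of counts, matched to the samples by their headers, and 0 other columns of per-sample values.

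Symbols were taken by Entrez identifier from the RefSeq table of GRCm38.p6 for 12690 of 12700 genes, and the other 10 kept their identifiers. Positions, transcript length and GC content came from GENCODE vM1 on NCBIM37, for 12232 genes. RPM were computed from the deposited counts with the aligned reads of each library, as stated by the study, as totals, and RPKM also with the longest protein-coding transcript. A count of 0 was set to 1 for a ratio. All 12700 genes were tested by the likelihood ratio test on Poisson counts, the test and thresholds (p under 0.05, log2 ratio of at least 0.7 in size) following the methods of the study, and tested first on simulated data. Standard errors and 95% intervals cover counting only.

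The members and all lists were chosen with earlier results of these data known. Genes named were taken from all members with a row, Ids, list genes called in both comparisons by label, the 2 most read genes of each pathway list, markers set beside a member, the 3 nearest profiles of Gfap, Serpina3n and Lcn2, and genes said to be chosen after their values were seen. Alternatives were column totals, TMM factors (edgeR 4.0.16) and DESeq2 1.42.0 size factors as totals, minima of 10 or 100 reads, 0.5 added to counts, p adjusted by Benjamini-Hochberg, a log2 threshold of 1, the exact test of edgeR at a biological coefficient of variation set to 0.2, and a correction of the log2 ratio, not of the p, for GC content and length. Python 3.11.15, scipy 1.17.1 and R 4.3.3 were used.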

Additional observations from a re-analysis of the deposited data

Results flagged for a closer look

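By label, Gfap, Lcn2 and Lrg1 moved in opposite directions in groups that were given the same contrast. The log2 ratio of Ids-ko over wt was higher in Cx than in M by 2.24 for Gfap and by 5.73 for Lcn2, with a ratio above 0 in Cx and below 0 in M. The log2 ratio of Cx over M gives the same difference from the same 4 libraries and is no second result. It was higher in Ids-ko than in wt by 2.24 for Gfap, 5.73 for Lcn2 and 3.26 for Lrg1, above 0 in Ids-ko and below 0 in wt. Lrg1 differed by 3.26 in the first form too, but was not called between MH and MWT (-0.65). With 1 library per condition the difference was not tested, and the labels of CxWT, MH and MWT go against Ids or the area markers.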

How the results depend on the processing

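Of 416 values of members recomputed under the alternatives, 403 kept their direction and whether they were called. The minima of 10 and 100 reads gave 42 and 38 of these, and could not change the value of a member that passed. With the log2 threshold of 1, the adjusted p and the exact test the log2 ratio was the same, so direction could not change. Correcting for GC content and length moved the median of the members to -1.22 between MH and MWT, the value of Lrg1, and to 0.38 between CxH and MWT, left 1 member called between CxH and MWT, and turned the log2 ratio of Gfap between CxH and MWT, not called either way, to -0.23. A log2 threshold of 1 left 2 members called between CxWT and MWT, and an assumed biological coefficient of variation of 0.2 left 3, in place of 5. TMM factors moved the median of all genes between MH and CxWT from -0.11 to -0.00364. The share of all calls that were higher in the first library moved from 45.2% to 56.0% for CxH and CxWT and from 41.9% to 54.2% for MH and CxWT with TMM factors (55.4% and 54.4% with DESeq2), and with column totals from 69.6% to 58.4% for CxH and MH, 72.0% to 55.2% for CxWT and MWT, and 50.8% to 39.1% for CxH and MWT. At a threshold of 1, Gfap, Serpina3n and Osmr were no longer called between CxWT and MWT, and with the assumed coefficient of variation Lrg1 and Osmr were not. Lrg1 between CxH and MWT fell to 0.68 with the GC correction. No paired analysis was possible because each condition has 1 library, which also leaves no replicate to leave out. Depth limits Lrg1 most, with 22 to 39 reads outside CxH.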
